A study of Mus musculus with 16 samples.

Results

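The 6 genes described here, Ccl2, Ccl7, Ccl8, Ccl11, Ccl12 and Ccl24, encode CC chemokines grouped as ligands of CCR2 and CCR3, the receptors through which monocytes and eosinophils are recruited, although Ccl8 in the mouse acts chiefly through another receptor. They were found by gene name, and all 6 were among the 37310 genes of the table. The genes were also chosen on earlier results from these libraries, in which Ccl8, Ccl12 and Ccl24 were low in the IRF5-KO samples on LT-HFD. For that reason their genotype values on LT-HFD, and the interaction of genotype and diet that contains them, are given as a description without a test.

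F4/80+ adipose tissue macrophages (ATMs) came from the epididymal fat of male mice on a C57BL/6 background, aged 7 to 10 weeks when a diet with 60% fat began. Mice were either IRF5-KO, with floxed Irf5 alleles deleted by a Cre expressed from the Lyz2 locus (LysM-Cre), or their WT littermates. Each genotype was fed for 4 weeks (short term, ST-HFD) or 12 weeks (long term, LT-HFD), with 4 libraries in each of the 4 groups. LysM-Cre acts in macrophages, monocytes and neutrophils alike, so the deletion is not particular to ATMs, and no lean mice were part of these libraries.

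The libraries held 3279332 to 4958131 counts, of which mmu-mir-689-2, mt-Rnr1 and mt-Rnr2 together took 18.6% to 34.5%. Levels are counts scaled to library size (CPM) with TMM factors. Libraries labelled IRF5-KO did not have a lower total of Irf5, which was 237 ± 23.1 CPM (SD, n = 4) in WT and 261 ± 11.5 in IRF5-KO on ST-HFD, and 193 ± 20.1 and 229 ± 26.4 on LT-HFD. A total per gene cannot separate deleted exons from retained ones. Lyz2, which carries the Cre, was at 3419 ± 287 CPM in WT and 1752 ± 251 in IRF5-KO on ST-HFD, and at 3661 ± 481 and 1783 ± 182 on LT-HFD. Genotypes and diet durations are therefore given as the libraries are labelled. By eye, a panel of the study appears to draw the libraries labelled with the shorter diet as LT-HFD and those labelled with the longer one as ST-HFD, and an exchange of these labels would turn each direction between LT-HFD and ST-HFD given here. The 4-week and the 12-week libraries cannot be told apart from any batch in which they were prepared. Mice on LT-HFD were also older at collection, as the diet began in the same range of ages. Diet duration therefore cannot be told apart from age.

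CC chemokines are small secreted proteins that bind G protein-coupled receptors on leukocytes and direct their migration. Ccl2, Ccl7 and Ccl12 are ligands of CCR2, which draws Ly6C-high monocytes out of the bone marrow and into inflamed tissue, including fat in obesity. Ccl11 (eotaxin-1) and Ccl24 (eotaxin-2) are ligands of CCR3, the main receptor of eosinophils, and Ccl24 is also made by macrophages exposed to IL-4. Ccl8 in the mouse is chiefly a ligand of CCR8 and is counted here with the family by its place in the gene cluster and by its use of related receptors.

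In GRCm38, 5 of the 6 genes lie in a cluster on chromosome 11 that spans 81229 bases, all on the plus strand. In order they are Ccl2 (chr11:82035571-82037453), Ccl7 (chr11:82045712-82047525), Ccl11 (chr11:82057823-82062955), Ccl12 (chr11:82101845-82103400) and Ccl8 (chr11:82115185-82116799). Ccl24 lies apart, on the minus strand of chromosome 5 (chr5:135569937-135573049). All are protein coding. Ccl2 overlaps Gm17268 on the other strand, and the strand setting of the counting is not given in the sources used here. No 50-base word of the transcripts of any of the 6 genes occurred in a transcript of another gene, so no near-identical copy was found at that length.

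Ccl12 and Ccl8, the neighbours at one end of the cluster, were the only 2 of the 6 matched in the RefSeq promoter table used here. Their promoters are shown for that reason, and the promoters of the others are not shown. Each run gives the 250 bases before the start of the gene on the plus strand (RefSeq, GRCm38.p6), from chr11:82101595-82101844 for Ccl12 and chr11:82114935-82115184 for Ccl8. Capitals mark the 3 words of 8 bases that both hold in the same order.
Ccl12: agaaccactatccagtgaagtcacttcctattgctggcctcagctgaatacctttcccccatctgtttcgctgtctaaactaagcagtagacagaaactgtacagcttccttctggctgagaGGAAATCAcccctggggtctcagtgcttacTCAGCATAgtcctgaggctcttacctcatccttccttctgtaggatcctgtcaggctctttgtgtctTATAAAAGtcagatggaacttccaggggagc
Ccl8: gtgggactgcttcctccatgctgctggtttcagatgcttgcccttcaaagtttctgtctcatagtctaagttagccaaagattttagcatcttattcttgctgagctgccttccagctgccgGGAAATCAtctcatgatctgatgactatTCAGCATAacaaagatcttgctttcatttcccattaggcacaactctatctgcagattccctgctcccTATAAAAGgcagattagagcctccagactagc

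The word GGAAATCA starts 128 bases before the start in both promoters. TCAGCATA starts 98 bases before it in Ccl12 and 100 in Ccl8, and TATAAAAG starts 31 and 32 bases before it. TATAAA, the core of the TATA box, was looked for after these runs had been read and occurs on the gene strand of 7.59% of the 32851 RefSeq promoters of this length. On either strand, neither window held GAAANNGAA, the interferon response motif (in 7.13% of promoters), GGNNTTTCC, an NF-kappaB motif (4.93%), or TGANTCA, an AP-1 motif (6.75%). The STAT6 motif (5.85%) was not found in them either.

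Compared per kb of exon, Ccl8 was the most abundant of the 6 in each group, at 354 CPM per kb in WT and 325 in IRF5-KO on ST-HFD, and 472 and 214 on LT-HFD. Ccl2 came next in each group, at 115, 144, 126 and 85.2 CPM per kb in the same order. Ccl11 was the lowest on ST-HFD, at 5.96 CPM per kb in WT and 7.15 in IRF5-KO, and stood at 55.7 and 49.8 on LT-HFD.

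Ccl2 (MCP-1), the best known attractant of monocytes into obese fat, was at 157, 172, 69.1 and 125 CPM in the WT libraries on ST-HFD and 122, 221, 217 and 93.8 in the IRF5-KO libraries. On LT-HFD it was at 131, 239.6, 117 and 87.0 CPM in WT and 149, 61.1, 79.3 and 98.2 in IRF5-KO. The groups overlapped at both diet durations, with one WT library on LT-HFD, replicate 2, above the rest of its group.

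Ccl7 (MCP-3), which shares CCR2 with Ccl2, followed it closely from library to library. Its levels were 88.7, 98.1, 31.8 and 59.2 CPM in WT and 73.0, 153, 124 and 48.1 in IRF5-KO on ST-HFD. On LT-HFD they were 62.5, 105, 54.6 and 31.7 CPM in WT and 64.5, 22.2, 30.5 and 18.5 in IRF5-KO. Groups overlapped on both diets, and 3 of the 4 IRF5-KO libraries on LT-HFD lay below all 4 WT libraries on LT-HFD.

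Ccl12 (MCP-5), a CCR2 ligand found in the mouse, was the scarcest CCR2 ligand. It stood at 19.3, 27.3, 9.59 and 10.9 CPM in WT and 12.6, 37.4, 30.4 and 11.3 in IRF5-KO on ST-HFD. On LT-HFD it stood at 16.2, 23.0, 16.9 and 19.0 CPM in WT and 11.3, 9.46, 5.88 and 6.47 in IRF5-KO. The genotypes overlapped on ST-HFD and did not on LT-HFD.

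Ccl8 (MCP-2) was at 232, 238, 99.6 and 155 CPM in WT and 115, 321, 87.7 and 141 in IRF5-KO on ST-HFD. On LT-HFD it was at 176, 367, 214 and 209 CPM in WT and 125, 89.5, 89.9 and 134 in IRF5-KO. As for Ccl12, the genotypes overlapped on ST-HFD and did not on LT-HFD.

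Ccl11 was at 6.42, 7.41, 7.06 and 4.89 CPM in WT and 7.40, 10.3, 10.8 and 2.45 in IRF5-KO on ST-HFD, from 10 counts in the lowest library. On LT-HFD it was at 47.6, 69.3, 20.5 and 104 CPM in WT and 49.3, 35.4, 57.7 and 73.0 in IRF5-KO. Each LT-HFD library lay above each ST-HFD library of its genotype, and genotypes overlapped on both diets.

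Ccl24 was at 51.7, 85.9, 80.5 and 43.2 CPM in WT and 45.8, 94.6, 117 and 73.9 in IRF5-KO on ST-HFD. On LT-HFD it was at 85.2, 181, 47.7 and 92.7 CPM in WT and 60.6, 13.8, 32.2 and 77.0 in IRF5-KO. The genotypes overlapped on both diets, and the WT libraries on LT-HFD spread the most, with an SD of 56.7 CPM.

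**Figure D1:**
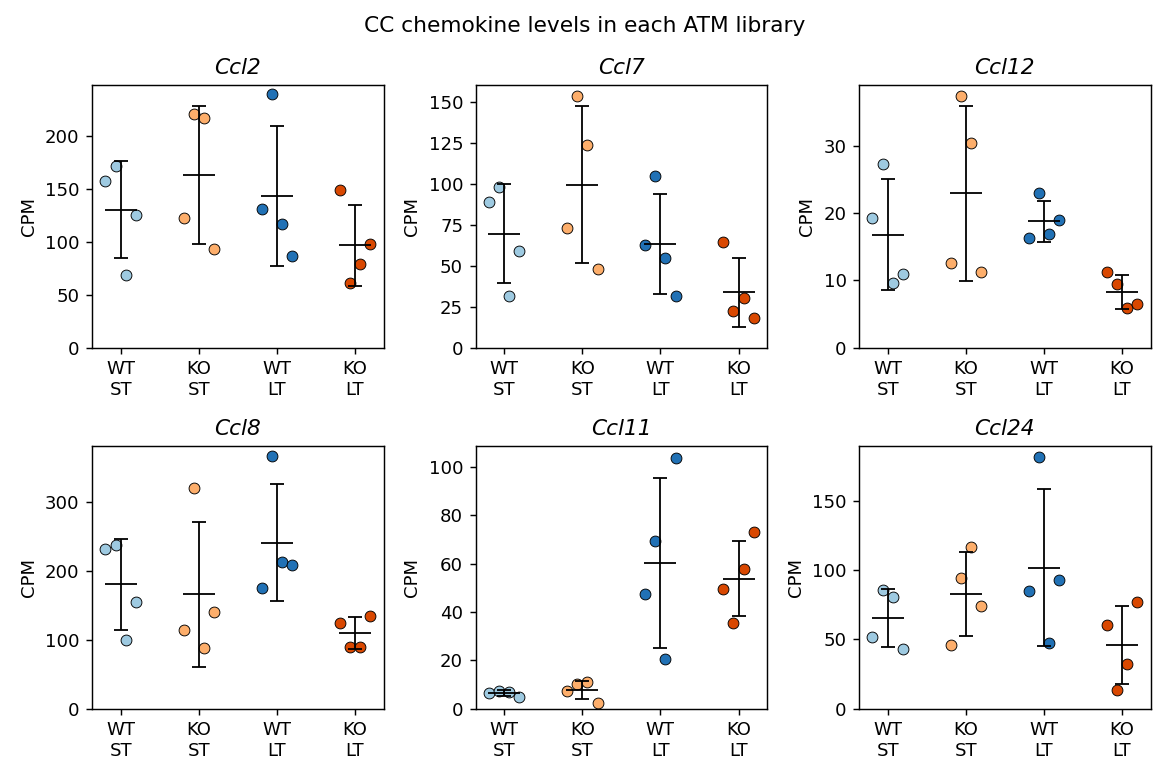
Level of each of the 6 chemokine genes (CPM, linear axis from 0) in each of the 16 libraries by group, with points for libraries and black bars for the mean and SD of 4. Ccl12 and Ccl8 do not overlap between genotypes on LT-HFD, as 1.65% of genes do not in this direction, and the choice of genes used these levels. Ccl11 is higher in each LT-HFD library than in the ST-HFD libraries of its genotype, as are 12.4% of genes in WT and 14.3% in IRF5-KO.

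Genotypes were compared on ST-HFD to ask whether loss of Irf5 changes these chemokines in early diet. None of the 6 genes passed the test (edgeR quasi-likelihood test, Benjamini-Hochberg adjusted p = 1 for each), against 0.00913% of the 10958 genes tested. Log2 fold changes of IRF5-KO against WT were 0.31 for Ccl2 (95% interval -0.37 to 0.98), 0.50 for Ccl7 (-0.32 to 1.32) and 0.43 for Ccl12 (-0.48 to 1.35). They were -0.13 for Ccl8 (-0.97 to 0.71), 0.26 for Ccl11 (-0.55 to 1.07) and 0.34 for Ccl24 (-0.27 to 0.95). On the log2 scale these intervals include no change, upper limits of 0.71 to 1.35 and lower limits of -0.27 to -0.97. In all, 5 of the 6 values were above 0, with a median of 0.32, and 50.7% of all tested genes were above 0. Single libraries moved these values. Ccl8 ranged from -0.66 to 0.081 and was above 0 in 4 of 8 fits that each left out 1 library. Ccl2 was at 0.099 without the WT replicate 3, Ccl7 at 0.22 and Ccl12 at 0.10 without the IRF5-KO replicate 2, and Ccl11 at 0.061 and Ccl24 at 0.13 without the IRF5-KO replicate 3. Leaving out other libraries raised them, to at most 0.496 for Ccl2, 0.728 for Ccl7, 0.748 for Ccl12, 0.547 for Ccl11 and 0.536 for Ccl24.

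On LT-HFD the 6 genes were lower on average in the libraries labelled IRF5-KO, with log2 fold changes of -0.57 for Ccl2 (standard error 0.316), -0.90 for Ccl7 (0.403), -1.17 for Ccl12 (0.238) and -1.14 for Ccl8 (0.226). Ccl24 was at -1.16 (0.469) and Ccl11 at -0.17 (0.378). All 6 were below 0, with a median of -1.02, where 49.9% of the 10987 tested genes were below 0. Without the WT replicate 4 on LT-HFD Ccl11 was at 0.23, so its place in this count rests on that library. Ccl12 and Ccl8 were the 2 genes with no overlap, a pattern that 1.65% of 11560 genes showed in the same direction. These are the values from which the genes were chosen, so nothing is read from either count.

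The WT library replicate 2 on LT-HFD had the fewest counts of the 16 (3279332) and the largest share taken by the 3 most counted features (34.5%), and it was the highest LT-HFD library for Ccl2, Ccl7, Ccl12, Ccl8 and Ccl24. Without it the log2 fold changes were -0.21 for Ccl2, -0.55 for Ccl7, -0.87 for Ccl8 and -0.73 for Ccl24, and the median of the 6 was -0.64. Without it and the IRF5-KO replicate 2, which was lowest for Ccl24, the median was -0.40. That pair was picked after its levels were seen, as the libraries with the highest and the lowest Ccl24, a choice that draws the genotypes together by construction for that gene. Ccl12 and Ccl8 then stood at -1.14 and -0.79, and Ccl2 and Ccl11 at -0.04 and 0.05.

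**Figure D2:**
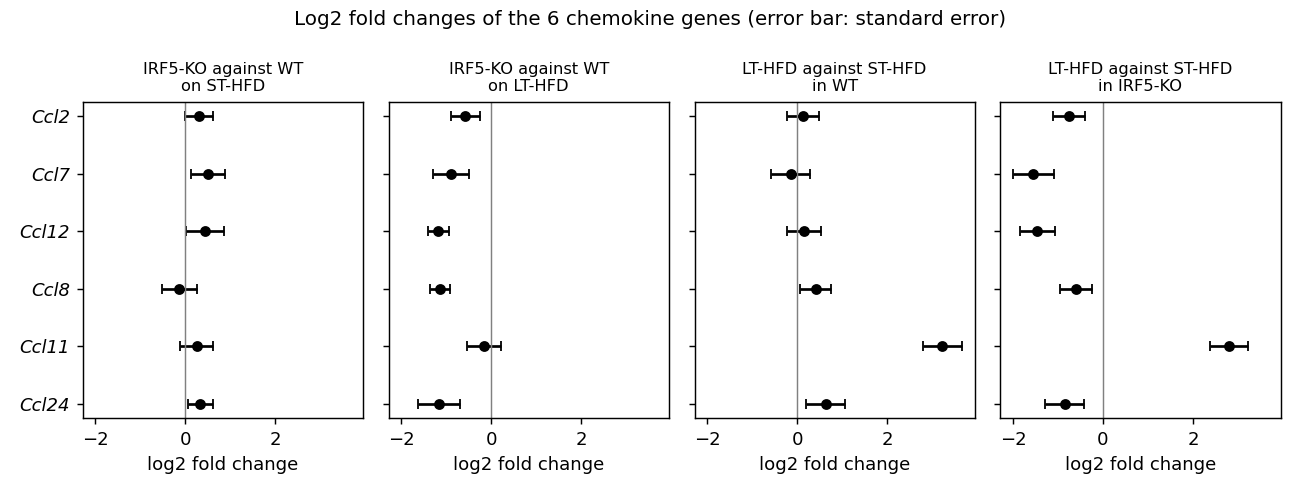
Log2 fold change (horizontal axis) of each of the 6 genes in 4 comparisons, with bars for the standard error. On LT-HFD all 6 values of IRF5-KO against WT lie below 0, and Ccl11 stands apart with values of 3.23 and 2.79 for LT-HFD against ST-HFD.

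LT-HFD was compared with ST-HFD within each genotype, over all 16 libraries. Both comparisons use the LT-HFD libraries whose Ccl8, Ccl12 and Ccl24 levels the choice of genes had in view, so the values of these 3 are given as a description without a test. The tests of Ccl2, Ccl7 and Ccl11 share those libraries and are not independent of the choice. In WT, Ccl11 rose by 3.23 on the log2 scale (standard error 0.431, edgeR adjusted p = 3.6e-05), a fold of 9.38 (95% interval 5.00 to 17.6). Of the 11560 genes tested 25.3% changed, and 12.1% rose. The log2 fold change was 0.13 for Ccl2 (edgeR adjusted p = 0.83) and -0.14 for Ccl7 (edgeR adjusted p = 0.848). As a description, it was 0.16 for Ccl12, 0.41 for Ccl8 and 0.64 for Ccl24. Without the WT replicate 2 on LT-HFD these were 0.051, 0.14 and 0.21. Each LT-HFD library lay above each ST-HFD library for 12.4% of genes in WT, Ccl11 among them.

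In the IRF5-KO libraries Ccl11 rose by 2.79 (standard error 0.424, edgeR adjusted p = 8.5e-05), a fold of 6.93, and Ccl7 fell by 1.55 (0.448, edgeR adjusted p = 0.0137). Of all genes tested 32.8% changed, 15.6% upward and 17.2% downward, and 14.3% had each LT-HFD library above each ST-HFD library. Ccl2 was at -0.75 (edgeR adjusted p = 0.112). As a description, Ccl12 was at -1.46 (standard error 0.396), Ccl24 at -0.85 (0.441) and Ccl8 at -0.60 (0.353). Without the IRF5-KO replicate 2 on ST-HFD, the library with the highest Ccl7, that gene's adjusted p was 0.0517. Without the IRF5-KO replicate 2 on ST-HFD, Ccl8 was at -0.065, and without the IRF5-KO replicate 2 on LT-HFD, Ccl24 was at -0.55. The differences between genotypes in these effects, a description for these genes, were -0.88 for Ccl2, -1.40 for Ccl7, -1.61 for Ccl12, -1.01 for Ccl8, -0.44 for Ccl11 and -1.49 for Ccl24, with standard errors of 0.496 to 0.621. Single libraries moved several of these, Ccl8 to -0.47 without the IRF5-KO replicate 2 on ST-HFD, Ccl2 to -0.52 without the WT replicate 2 on LT-HFD, and Ccl11 to -0.033 without the WT replicate 4 on LT-HFD and to -0.73 without the IRF5-KO replicate 4 on ST-HFD.

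Ordered by mean level, neighbouring groups overlapped for each gene, except that Ccl11 in IRF5-KO on LT-HFD (53.9 ± 15.7 CPM) did not overlap IRF5-KO on ST-HFD (7.73 ± 3.83).

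Markers of fibroblasts and preadipocytes, cells that are known to make eotaxin-1 in fat, rose in the same comparisons as Ccl11. All 8 listed fibroblast markers rose in WT, where 12.1% of all genes rose, and 7 of 8 rose in IRF5-KO, where 15.6% did, with median log2 fold changes of 2.7 and 2.64. The summed level was 996 to 1145 CPM in WT and 675 to 1647 in IRF5-KO on ST-HFD, and 3140 to 9185 and 3247 to 7517 on LT-HFD. Dcn, the matrix protein decorin, averaged 104 CPM in WT on ST-HFD and 1315 on LT-HFD. Pdgfra, the receptor that marks adipocyte progenitors, averaged 14.2 and 154 CPM. Markers of other cell types passed the test in part. Tpsb2, a mast cell tryptase and the 1 tested of 5 mast cell markers, rose by 3.28 in WT (edgeR adjusted p = 0.00337) and 4.83 in IRF5-KO (edgeR adjusted p = 2.65e-04). Tpsb2 had 0 to 3 counts per library in WT and 0 to 1 in IRF5-KO on ST-HFD, so these rises start near 0. Wt1, 1 of 2 tested mesothelial markers, had 2 to 7 counts per library in WT and 3 to 7 in IRF5-KO on ST-HFD. It rose by 2.99 in WT (edgeR adjusted p = 1.98e-04) and 2.66 in IRF5-KO (edgeR adjusted p = 3.5e-04). The other tested one, Upk3b, was at -0.33 in WT (edgeR adjusted p = 0.772) and -0.096 in IRF5-KO (edgeR adjusted p = 0.937), so the tested mesothelial markers did not share a direction. Of the 5 tested monocyte markers Hp (haptoglobin) rose in both genotypes, by 1.78 in WT (edgeR adjusted p = 0.0074) and 1.56 in IRF5-KO (edgeR adjusted p = 0.0135), and Ccr2 was the 1 that fell in IRF5-KO. The median of the 5 was 1.32 in WT and 1.56 in IRF5-KO. Of the 5 adipocyte markers none passed in WT, and in IRF5-KO Fabp4 rose by 1.35 (edgeR adjusted p = 0.00565) and Cidec fell by 1.05 (edgeR adjusted p = 0.0484). Of 9 macrophage markers 2 fell in WT, and in IRF5-KO 2 rose and 3 fell. In IRF5-KO 1 of 4 tested dendritic cell markers and 1 of 2 neutrophil markers fell, and in WT none did. Over all genes 13.2% fell in WT and 17.2% in IRF5-KO. The summed mast cell markers reached at most 20.7 CPM and the mesothelial ones 25.1 CPM in any library. Their part in the level of Ccl11 was not tested. Fewer cells of a type and less RNA per cell cannot be told apart in these bulk samples.

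**Figure D3:**
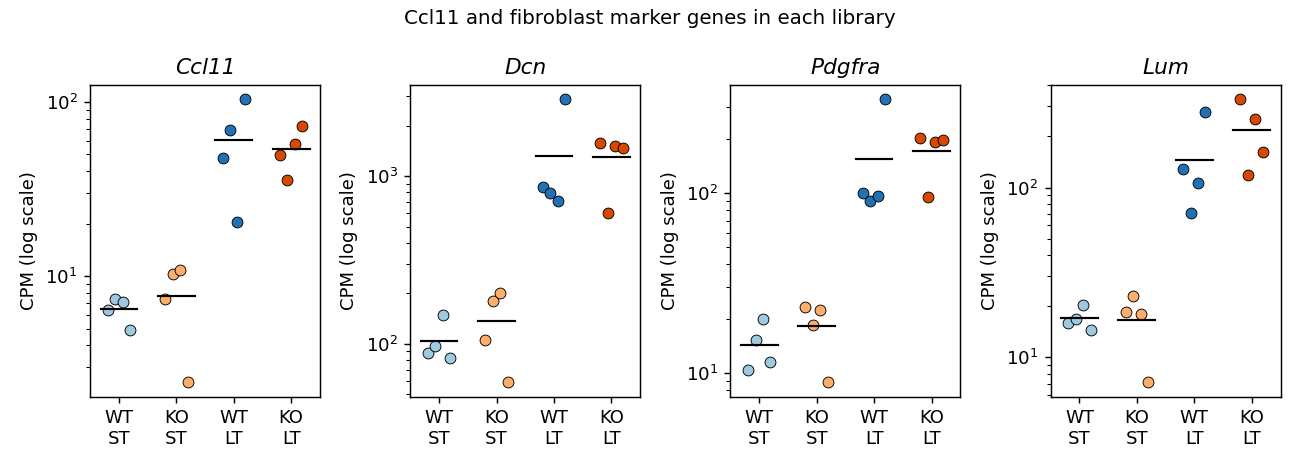
Ccl11 and 3 fibroblast markers (CPM, log axis) in each library by group, with points for libraries and black bars for the mean of 4. The mean of each of the 4 genes is higher on LT-HFD than on ST-HFD in both genotypes, and the WT libraries on LT-HFD spread the most for Dcn and Pdgfra.

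Transcripts that define eosinophils, the cells CCR3 ligands recruit, were scarce in these F4/80-selected cells, which do not show how many eosinophils the fat held. The granule genes Epx and Prg2 had 0 to 1 and 0 to 2 counts per library, Il5ra had 0 to 1, Ear6 had 0 in each library, and Siglecf had 0 to 15. Alox15, a lipoxygenase that macrophages also express, had 2 to 50 counts. Summed over the 8 listed eosinophil markers the level was 2.98 to 22.3 CPM. Of the receptors, Ccr3 had 2 to 23 counts and Ccr8, the receptor of Ccl8, had 0 in all 16 libraries, which allows no level above that of 3 counts per library.

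Ccr2, the receptor of Ccl2, Ccl7 and Ccl12, was at 177 ± 33.4 CPM in WT and 164 ± 32.7 in IRF5-KO on ST-HFD, and 137 ± 22.0 and 94.1 ± 25.8 on LT-HFD. From ST-HFD to LT-HFD in IRF5-KO it fell by 0.80 (standard error 0.200, edgeR adjusted p = 0.00543), and in WT its log2 fold change was -0.37 (edgeR adjusted p = 0.193). Of the 10 listed receptors and scavengers 6 were tested. In WT 1 rose and none fell, where 12.1% of all genes rose and 13.2% fell. In IRF5-KO 1 rose and 2 fell, where 15.6% rose and 17.2% fell. The second that fell was Ccr1, by 0.62 (edgeR adjusted p = 0.0414). The call of Ccr1, LT-HFD against ST-HFD in IRF5-KO was lost with the replicate block (edgeR adjusted p = 0.0685) and without any one of IRF5-KO ST-HFD replicates 2, 3 and 4 and IRF5-KO LT-HFD replicates 1, 3 and 4 (edgeR adjusted p of 0.07 to 0.125). The one that rose was Ackr2, a scavenger of CC chemokines, by 3.46 in WT (edgeR adjusted p = 4.07e-04) and 2.38 in IRF5-KO (edgeR adjusted p = 0.00394). Ackr2 had only 2 to 6 counts per library in WT and 3 to 14 in IRF5-KO on ST-HFD. Between genotypes, none of the 5 tested passed the test on either diet, where 0.00913% (ST-HFD) and 0.0182% (LT-HFD) of all genes did. All 5 had values below 0 after the longer diet (median -0.34, Ccr2 at -0.55), where 49.9% of all tested genes did. The summed level of the list was then 364 to 446 CPM in WT and 235 to 357 in IRF5-KO, with no overlap. Of single genes 1.65% had no overlap in this direction. Ccr2 is part of this sum, and no sum was taken without it. The part of this list in the chemokine levels was not tested.

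The other CC chemokines were a list of 12, of which 11 were in the table and 7 were tested, and 1 passed the test in each genotype between diet durations, where 25.3% of all genes did in WT and 32.8% in IRF5-KO. In WT, Ccl4, made by activated macrophages, rose by 1.03 (edgeR adjusted p = 0.0339). For Ccl4, LT-HFD against ST-HFD in WT, this call was lost without WT ST-HFD replicate 1 or 3 or without WT LT-HFD replicate 1, 2 or 3 (edgeR adjusted p of 0.0507 to 0.0927). In IRF5-KO, Ccl22, a CCR4 ligand, fell by 1.97 (edgeR adjusted p = 0.00898). No other of the 7 tested passed the threshold in either genotype.

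Ccl2, Ccl7 and Ccl12 varied together among the libraries on ST-HFD. Across the 8 libraries on ST-HFD, Pearson's r was 0.987 for Ccl2 and Ccl7 (Spearman's rho 0.976, exact permutation p = 7.44e-05, adjusted over 30 relations 0.00223, and r = 0.975 without the 2 most extreme libraries). It was 0.934 for Ccl7 and Ccl12 (rho 0.976, exact permutation adjusted p = 0.00632, r = 0.935 without 2) and 0.923 for Ccl2 and Ccl12 (rho 0.929, exact permutation adjusted p = 0.0109, r = 0.922 without 2). On LT-HFD, r was 0.885 for Ccl2 and Ccl7 (rho 0.857, exact permutation adjusted p = 0.0249), and 0.774 without 2 libraries (exact permutation p = 0.0792), so it rests in part on those. Ccl12 and Ccl8 correlated on LT-HFD at 0.864 over both genotypes and at 0.432 once each genotype was centred. Libraries share their depth and their cell makeup in these correlations. The permutations treat the 8 libraries of a diet duration as independent, and keep neither genotype nor any pairing of same-numbered libraries.

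Immediate early genes are known to be induced by handling and dissociation of tissue. The summed level of 13 such genes was 12320, 15770, 5899 and 11010 CPM in the WT libraries on ST-HFD and 11740, 16900, 15850 and 7500 in IRF5-KO. On LT-HFD it was 11090, 12690, 9143 and 11960 CPM in WT and 10790, 6787, 8254 and 9498 in IRF5-KO. The lowest sum on ST-HFD was in the WT library replicate 3, which was also the lowest for Ccl2, Ccl7 and Ccl12 within WT. On LT-HFD the highest sum was in the WT library replicate 2, the highest there for Ccl2, Ccl7, Ccl12, Ccl8 and Ccl24, and the lowest was in the IRF5-KO library replicate 2, the lowest there for Ccl2. Other libraries differed in this: WT replicate 4 on LT-HFD had a sum of 11960 CPM and the lowest Ccl2 and Ccl7 of its group, and IRF5-KO replicate 3 on ST-HFD had a sum of 15850 CPM and the lowest Ccl8 of its group. In the comparison of genotypes 13 of 13 were above 0 on ST-HFD and 13 of 13 were below 0 on LT-HFD, and none passed the test. Over all tested genes 50.7% were above 0 on ST-HFD and 49.9% were below 0 on LT-HFD. Only 0.00913% and 0.0182% passed, so a count of 0 says nothing particular about this list. From ST-HFD to LT-HFD in IRF5-KO, 4 of 13 fell (Jund, Zfp36, Egr1 and Fosb), where 17.2% of all genes fell. Egr1, LT-HFD against ST-HFD in IRF5-KO, and Fosb, LT-HFD against ST-HFD in IRF5-KO, lost the call with the replicate block (edgeR adjusted p = 0.0586 and 0.0755) and without any one of IRF5-KO ST-HFD replicates 2 and 3 and IRF5-KO LT-HFD replicates 2 and 3 (edgeR adjusted p of 0.0529 to 0.0879). In WT none fell and 1 of 13 rose, Ier3 by 0.90 (edgeR adjusted p = 0.0445), where 13.2% of all genes fell and 12.1% rose. The part of this in the chemokine levels was not tested.

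All 8 listed markers of resident adipose macrophages had log2 fold changes below 0 for IRF5-KO against WT on LT-HFD, with a median of -0.71. None passed the test. Over all tested genes 49.9% were below 0 and 0.0182% passed, which holds also beside the dendritic cell, neutrophil and monocyte lists below. None passing therefore says nothing particular about these lists. The sum of the resident markers was 4501 to 8274 CPM in WT and 2473 to 5686 in IRF5-KO, which overlap. Dendritic cell markers were below 0 in 3 of 3 tested, with a median of -0.65, and neutrophil markers in 2 of 2, with a median of -1.17, and none of these passed the test. Monocyte markers, of which 5 were tested, were below 0 in 4 (median -0.10) and none passed. Their sum was 200 to 226 CPM in WT and 136 to 184 in IRF5-KO on LT-HFD, with no overlap, and 62.0 to 87.3 and 61.5 to 78.4 CPM, with overlap, when Ccr2 was left out of the list. From ST-HFD to LT-HFD, 6 of 8 resident markers fell in IRF5-KO, where 17.2% of all genes fell, with Lyve1 at -2.53, Timd4 at -1.94 and Cd163 at -1.86, and 2 of 8 fell in WT, where 13.2% did, Lyve1 at -1.72 and Cd163 at -0.94. For Cd163, LT-HFD against ST-HFD in WT, the call was lost with the replicate block (-0.96, edgeR adjusted p = 0.0588) and without any one of WT ST-HFD replicates 1, 2 and 3, WT LT-HFD replicates 1, 3 and 4, IRF5-KO ST-HFD replicate 4 and IRF5-KO LT-HFD replicate 1 (edgeR adjusted p of 0.0513 to 0.129). Macrophage markers were abundant in each library. Their sum did not overlap between genotypes, at 9948 to 10440 CPM in WT and 7934 to 8675 in IRF5-KO on ST-HFD, and 8064 to 9940 and 6675 to 7450 on LT-HFD. Without Lyz2, which carries the Cre, the sums overlapped, at 6617 to 7122 and 6279 to 6824 CPM on ST-HFD, and 5105 to 6183 and 4976 to 5394 on LT-HFD. The part of these lists in the chemokine levels was not tested.

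**Figure D4:**
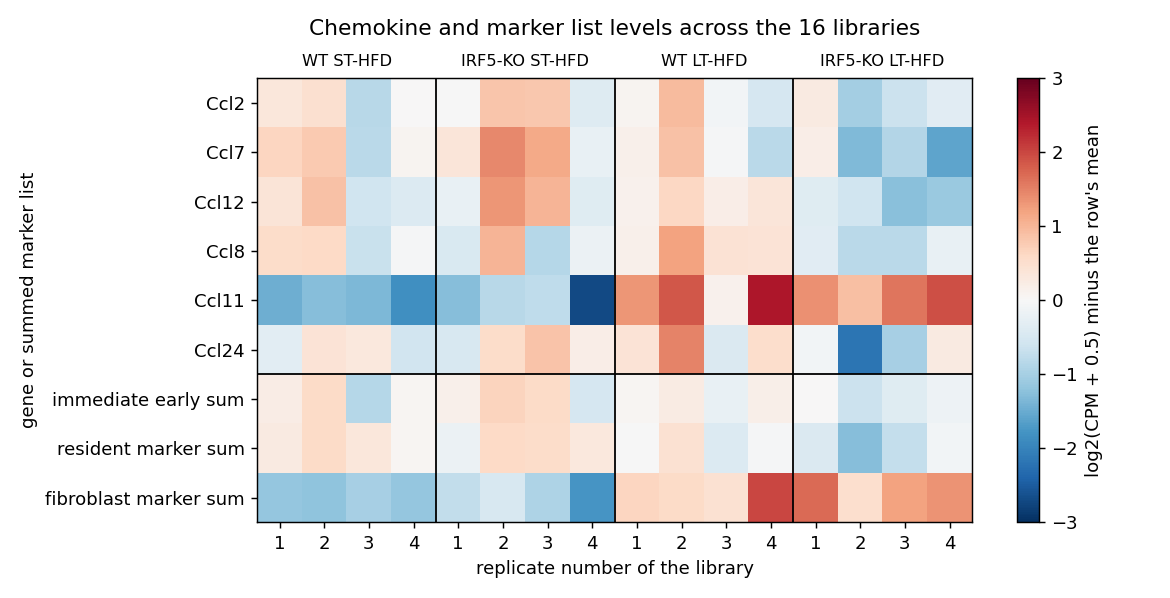
Heatmap of log2(CPM + 0.5) minus the row's mean for the 6 chemokine genes and 3 summed marker lists (rows) over the 16 libraries by group (columns). Ccl2, Ccl7, Ccl12 and the immediate early sum are low in WT ST-HFD replicate 3 and high in IRF5-KO ST-HFD replicates 2 and 3, and Ccl11 and the fibroblast marker sum are both higher on LT-HFD.

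Of the pathways that drive these chemokines, 13 of the 15 listed genes of the IL-4 and IL-13 pathway were tested. In IRF5-KO 7 fell from ST-HFD to LT-HFD, among them Klf4, Retnla and Mrc1, where 17.2% of all genes fell. Il4ra and Stat6 were also among the 7. Their calls were lost in 4 and 5 of 16 fits that each left out 1 library (edgeR adjusted p of up to 0.0787 and 0.08). In WT 3 fell and 1 rose, where 13.2% of all genes fell and 12.1% rose. Of the 26 genes listed for Toll-like receptors, NF-kappaB and type I interferon, 5 fell in WT and 5 fell in IRF5-KO, where 13.2% and 17.2% of all genes fell, and none rose. Between genotypes none of either list passed the test on ST-HFD or LT-HFD, where 0.00913% and 0.0182% of all genes did, so a count of 0 says nothing particular about these lists.

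By library pattern, the gene most like Ccl11 over the 16 libraries was Crispld2 (Pearson's r of log2 CPM 0.985), followed by Prss23 (0.983) and Sod3 (0.981). The gene most like Ccl2 was Mapkapk2 (0.932), the one most like Ccl7 was Ets2 (0.931), the one most like Ccl12 was Pnrc1 (0.886), and the one most like Ccl8 was Isg15 (0.812). For Ccl24 it was 2010110P09Rik (0.963). With each group centred, the gene named first for each of the 6 members was no longer among the 3 most like it. Centred r was still 0.905 for Crispld2, 0.924 for Mapkapk2, 0.9 for Ets2 and 0.949 for 2010110P09Rik. It was 0.788 for Pnrc1 and 0.761 for Isg15. Of the 3 most like each member before centring, 2 were among the centred 3 for Ccl7, 1 for Ccl2, Ccl8 and Ccl11, and 0 for Ccl12 and Ccl24. Likeness was ranked over 11559 genes, and the first named for each member ranked highest.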

How the data were processed

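Ribodepleted stranded total RNA libraries were sequenced in pairs. The authors aligned reads with STAR 2.7.3a to mm10 and deposited unnormalized counts for each gene. Their processing notes also list fastp 0.19.11 and mm9. The annotation release and strand setting are not given in the sources used here. Members and gene lists were chosen with earlier results of these data known. Deposited counts were filtered by filterByExpr, scaled by TMM and tested with edgeR 4.0.16's quasi-likelihood test (R 4.3.3), with Benjamini-Hochberg adjustment over all genes. Genotypes were compared within each diet duration, and durations and the interaction over 16 libraries. The threshold was an adjusted p under 0.05. The methods were tested on simulated data. Older symbols were matched by Ensembl ID. Named genes were the 6 members and, in each list, up to 4 genes passing the threshold or the 2 most abundant. Same-numbered libraries correlated at 0.369, 0.483, 0.179 and 0.298 between genotypes on ST-HFD (deviations from group means, 9765 genes), taken as pairs from the data alone, and at -0.0696, -0.151, 0.0585 and 0.233 on LT-HFD. Libraries with different numbers on ST-HFD correlated at -0.509 to 0.467, and WT 4 with IRF5-KO 1 (0.467) and WT 2 with IRF5-KO 3 (0.408) exceeded some same-numbered pairs, so the pairing is a hint and not known from the design. No duplicate libraries were found. The values of 1 listed gene are not reported here. The study gives n = 4 per genotype for this sequencing and counts mice in its legends, but the labels do not tie each library to a mouse. If libraries share mice, p-values measure the spread between libraries, which may be technical. In the duration comparisons, Ccl8, Ccl12 and Ccl24 were fitted as the other genes were and are printed without a p. Alternatives were DESeq2 1.42.0, other scalings, no filter, a replicate block, other fits and leaving out libraries.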

Additional observations from a re-analysis of the deposited data

How the results depend on the processing

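The alternatives were DESeq2's Wald test, RLE and library-size scaling, no filter, a replicate block, other sets of libraries and leaving out each library. Leaving out single libraries gave log2 ranges that cross 0 for Ccl8 on ST-HFD (-0.66 to 0.081), Ccl11 between genotypes on LT-HFD (-0.44 to 0.23), and from ST-HFD to LT-HFD in WT for Ccl2 (-0.23 to 0.31), Ccl7 (-0.49 to 0.082) and Ccl12 (-0.028 to 0.49). Genes called on ST-HFD numbered 1, and 2 by DESeq2, with no filter, with the replicate block or with all 16 libraries. On LT-HFD they numbered 2, and 6 by DESeq2 and with no filter, 1 by library size, 0 with the replicate block and 0 to 2 without single libraries. With WT and IRF5-KO replicate 2 both left out, a pair chosen after seeing the data for its extreme Ccl24, 1 gene was called on LT-HFD, the median of the 6 chemokines was -0.40 instead of -1.02 (-1.26 to -0.64 without single libraries) and Ccl11 was at 0.053. On ST-HFD, leaving out the pair lowest for immediate early genes, also chosen after seeing the data, called none of the 6. The replicate block changed no call of the 6 chemokines, and it gave -1.58 (edgeR adjusted p = 0.0108) for Ccl7, LT-HFD against ST-HFD in IRF5-KO. Of the results that missed the threshold, Ccl2, LT-HFD against ST-HFD in IRF5-KO passed with no filter (edgeR adjusted p = 0.0419) and without IRF5-KO LT-HFD replicate 1 (edgeR adjusted p = 0.044). The causes were not tested. Counts of 10 in the lowest library limit Ccl11 on ST-HFD.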
